A study of Mus musculus with 2 samples.

Results

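The genes described here are 8 genes of replacement histones (H3f3a, H3f3b, H2afz, H2afv, H2afy, H2afj, H2afx and H1f0) and Hist3h2ba, an H2B gene outside the large histone clusters, 9 of the 32285 genes in the count tables. They were chosen by name, with earlier results of the same libraries known, and all 9 were found by symbol. RNA of dissociated mouse retina was measured by droplet-based 3' single-cell sequencing in 1 control library and 1 light damage library. Mice of both groups were functional wild types with both Tgfbr2 alleles floxed, on a mixed Balb-C and CD1 background and homozygous for the light-sensitive leucine variant of RPE65, were 6 to 9 weeks old, and were kept in darkness for 18 h. Both sexes were used, and the sexes in each pool are not given in the sources used here. Light damage mice were then exposed to white light of 5000 lux for 30 min and recovered for 6 h in dim light, and control mice were dark-adapted without the exposure. Each library came from retinae of 3 to 5 pooled mice, so the condition, the pool and the library cannot be told apart, and no difference below has a replicate check or a test.

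Histones package DNA. Most histone genes have no intron, lie in clusters and are transcribed for DNA replication, and their mRNA ends in a conserved stem loop in place of a poly(A) tail. Replacement histones are made throughout the cell cycle from polyadenylated mRNA and are the supply of new histone in cells that no longer divide, such as photoreceptors. H3.3, encoded by both H3f3a and H3f3b, is laid down at transcribed genes and regulatory regions, and H2A.Z, encoded by H2afz and H2afv, marks nucleosomes beside transcription start sites.

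Sequences are shown here for Hist3h2ba, which was lower after light damage, and for H3f3b and H3f3a, which encode the same protein and differed from each other in rods. The 250 bases before the transcription start are printed from RefSeq on GRCm38.p6, 5' to 3' on the gene's own strand. Distances hold for these RefSeq starts only. The GENCODE annotation extends upstream of them, to base 116027962 for H3f3b and 180813943 for H3f3a. RefSeq promoters of 250 bases before to 50 bases after the start were found for 8 of the 9 genes, all but H2afx. The capitals mark CCAAT (the box read by the factor NF-Y), ATTTGCAT (the octamer read by OCT factors, found in H2B promoters) and TATAAA (the TATA box), each searched on both strands, so that a site on the opposite strand reads ATTGG, ATGCAAAT or TTTATA. These motifs share no letters in the sequences shown.
Hist3h2ba, chr11:58948661-58948910, plus strand: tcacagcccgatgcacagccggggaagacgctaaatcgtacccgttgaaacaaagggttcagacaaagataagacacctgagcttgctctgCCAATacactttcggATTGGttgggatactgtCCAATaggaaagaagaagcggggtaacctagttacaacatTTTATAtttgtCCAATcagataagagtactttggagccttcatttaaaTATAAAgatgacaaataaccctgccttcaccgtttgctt
H3f3b, chr11:116024505-116024754, minus strand: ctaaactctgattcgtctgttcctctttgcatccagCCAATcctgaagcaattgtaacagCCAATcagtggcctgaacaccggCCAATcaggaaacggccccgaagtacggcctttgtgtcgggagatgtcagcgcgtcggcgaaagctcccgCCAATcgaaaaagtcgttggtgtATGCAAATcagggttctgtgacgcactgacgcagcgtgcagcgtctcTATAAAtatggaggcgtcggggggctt
H3f3a, chr1:180813606-180813855, minus strand: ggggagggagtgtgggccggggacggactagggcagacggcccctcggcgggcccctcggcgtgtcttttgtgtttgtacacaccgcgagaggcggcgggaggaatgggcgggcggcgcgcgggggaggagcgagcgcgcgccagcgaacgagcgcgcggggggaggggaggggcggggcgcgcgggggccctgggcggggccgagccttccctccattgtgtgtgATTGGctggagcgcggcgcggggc

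Hist3h2ba held 4 CCAAT boxes, 159, 144, 127 and 76 bases before the start, and 2 TATAAA sites, 87 and 39 bases before it. H3f3b held 4 CCAAT boxes, 1 octamer 74 bases before the start and 1 TATAAA 27 bases before it. The promoter of H3f3a held 1 CCAAT and neither of the others, and its GC content over the 300 bases was 74%, against 55% for H3f3b and 47% for Hist3h2ba. Over 32851 mouse promoters of the same length, 37.4% held CCAAT, 1.74% ATTTGCAT and 13.6% TATAAA. H2afv held 4 CCAAT boxes, H2afz and H2afj 3 each, and H2afy and H1f0 none. None of the 8 promoters held TGACGTCA, the cyclic AMP response element, TGANTCA, the AP-1 site, or TTCNNNGAA, the STAT site, which were present in 1.79%, 7.81% and 8.30% of all promoters, and the lack of a match says only that these letters were not in these windows.

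Annotated transcripts (GENCODE vM21, GRCm38) of 2 of the 9 genes held the histone stem loop, which is shown because it separates these genes from the other 7 by the way their mRNA can end.
Hist3h2ba, chr11:58949349-58949364, plus strand: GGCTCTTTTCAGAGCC
H2afx, chr9:44335240-44335255, plus strand: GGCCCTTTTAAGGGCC
The stem loop of Hist3h2ba ended 169 bases before the end of a transcript of 614 bases, which has the poly(A) signal AATAAA in its last 50 bases. That of H2afx ended 822 bases before its transcript's end. A stem loop was found in 68 of 21877 protein-coding genes (0.311%) and in 46 of 67 genes named Hist1h to Hist4h (68.7%). The 3' libraries were primed on poly(A), so UMIs of these genes count polyadenylated mRNA, and RNA that ends at the stem loop was not measured.

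Levels are UMIs of a gene, spliced plus ambiguous (UMIs that fit both spliced and unspliced RNA), summed over the droplets of a cell class and library and divided by all such UMIs of that class, scaled as CPM (per 1000000 UMIs). The control library kept 3669 droplets and the light damage library 5593, of which 3239 and 5095 were rods by their marker UMIs. Rods were split at 25% unspliced UMIs, a value set with their distribution in view. Low-unspliced rods numbered 2459 in control and 1919 after light damage, with a median of 2718 and 3116 UMIs. High-unspliced rods numbered 780 and 3176, with 3776 and 6202. Few rods lay near the split, with 147 control and 60 light damage rods between 20 and 30%. Droplets were called cone-like (164 and 92), RPE-like (137 and 278, cells of the retinal pigment epithelium) and Müller-like (31 and 32) from their own markers. All 8 rod markers and all 8 cone markers were detected in their own classes in both libraries, and 1 of the 7 RPE markers was at 0 in control RPE-like droplets. Müller-like droplets held UMIs of all 8 Müller glia markers in both libraries, summing to 18852 CPM in control and 9608 CPM after light damage. Xist, the RNA of the inactive X chromosome, had 3499 UMIs in control high-unspliced rods and 2 in those of light damage, so the pools differed in their mix of sexes, which cannot be told apart from the condition. Of the barcodes above the inflection point of UMIs, 7 occurred in both libraries.

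Hist3h2ba was the 1 gene of the 9 that lay at least 2-fold lower after light damage in rods. In low-unspliced rods it had 1046 UMIs in control, or 128 CPM (120 to 136, 95% Poisson interval), and 188 UMIs after light damage, or 27.5 CPM (23.7 to 31.8). The level was 4.64-fold lower, a log2 ratio of -2.21 with a counting interval from -2.45 to -1.99. Among 8050 genes that reached 100 UMIs in the sum of both libraries, 0.534% were at least 2-fold lower and 2.41% at least 2-fold higher, and of the 9 histone genes 1 was lower and 0 were higher. Only 2 of the 8050 genes, Xist and Gm7616, named here after their values were seen, had a lower ratio than Hist3h2ba. Intervals cover counting error only.

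High-unspliced rods gave a like difference for Hist3h2ba. Its level was 63.3 CPM (52.3 to 76.0) from 115 UMIs in control and 14.8 CPM (12.6 to 17.2) from 168 UMIs after light damage, and the log2 ratio was -2.10 (-2.45 to -1.74). In this comparison 1.88% of 9457 genes were at least 2-fold lower and 7.11% at least 2-fold higher, against 1 and 0 of the 9 histone genes. Of the 9457 genes 5 had a lower ratio than Hist3h2ba. They were Xist, Tsix, Gstp1, Col4a3 and Gm9752, also named after their values were seen.

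When rods were divided into 8 bins along their unspliced share, Hist3h2ba was lower after light damage in 8 of 8, and the Poisson intervals lay apart in 7. From the bin of 0 to 5% to that of 60 to 100%, the control level was 130, 128, 151, 59.3, 45.6, 95.8, 84.1 and 31.6 CPM. The light damage level was 27.7, 27.8, 29.7, 24.96, 14.2, 15.6, 13.7 and 13.1 CPM over the same bins. Control rods were thus uneven along the bins and light damage rods stayed under 30 CPM in each of them.

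The share of droplets with a UMI of Hist3h2ba followed the level. In low-unspliced rods it was 19.2% (17.7 to 20.8, exact binomial interval) in control and 6.67% (5.59 to 7.88) after light damage. With each droplet thinned to 1000 UMIs the shares were 10.4% and 1.98%, with no droplet left out in either group. Thinned RPE-like droplets gave 2.19% of 137 in control and 0.719% of 278 after light damage, at unthinned medians of 3136 and 6497 UMIs. The intervals of rods and RPE-like droplets lay apart in control, at 9.23 to 11.7% and 0.454 to 6.27%, and overlapped after light damage, at 1.41 to 2.71% and 0.087 to 2.57%. No droplet held more than 14 of the 1046 control UMIs.

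Free RNA held the same difference. In barcodes under 50 UMIs, taken as RNA outside cells, Hist3h2ba stood at 171 CPM (148.7 to 195) in control and 29.0 CPM (22.8 to 36.4) after light damage. From the RPE marker UMIs that rods carried, free RNA was estimated at 0.931% of the RNA of control low-unspliced rods, worth 1.59 CPM of Hist3h2ba, and at 0.769% in light damage, worth 0.223 CPM. In control RPE-like droplets 5 UMIs of the gene gave 7.66 CPM (2.49 to 17.9), and in those of light damage 10 UMIs gave 4.37 CPM (2.10 to 8.04), where free RNA estimated from rod markers accounts for 8.97 and 1.05 CPM. The control level in RPE-like droplets was therefore at background. The 10 UMIs of light damage RPE-like droplets came from 3 droplets, 8 of them from a single one.

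**Figure D1:**
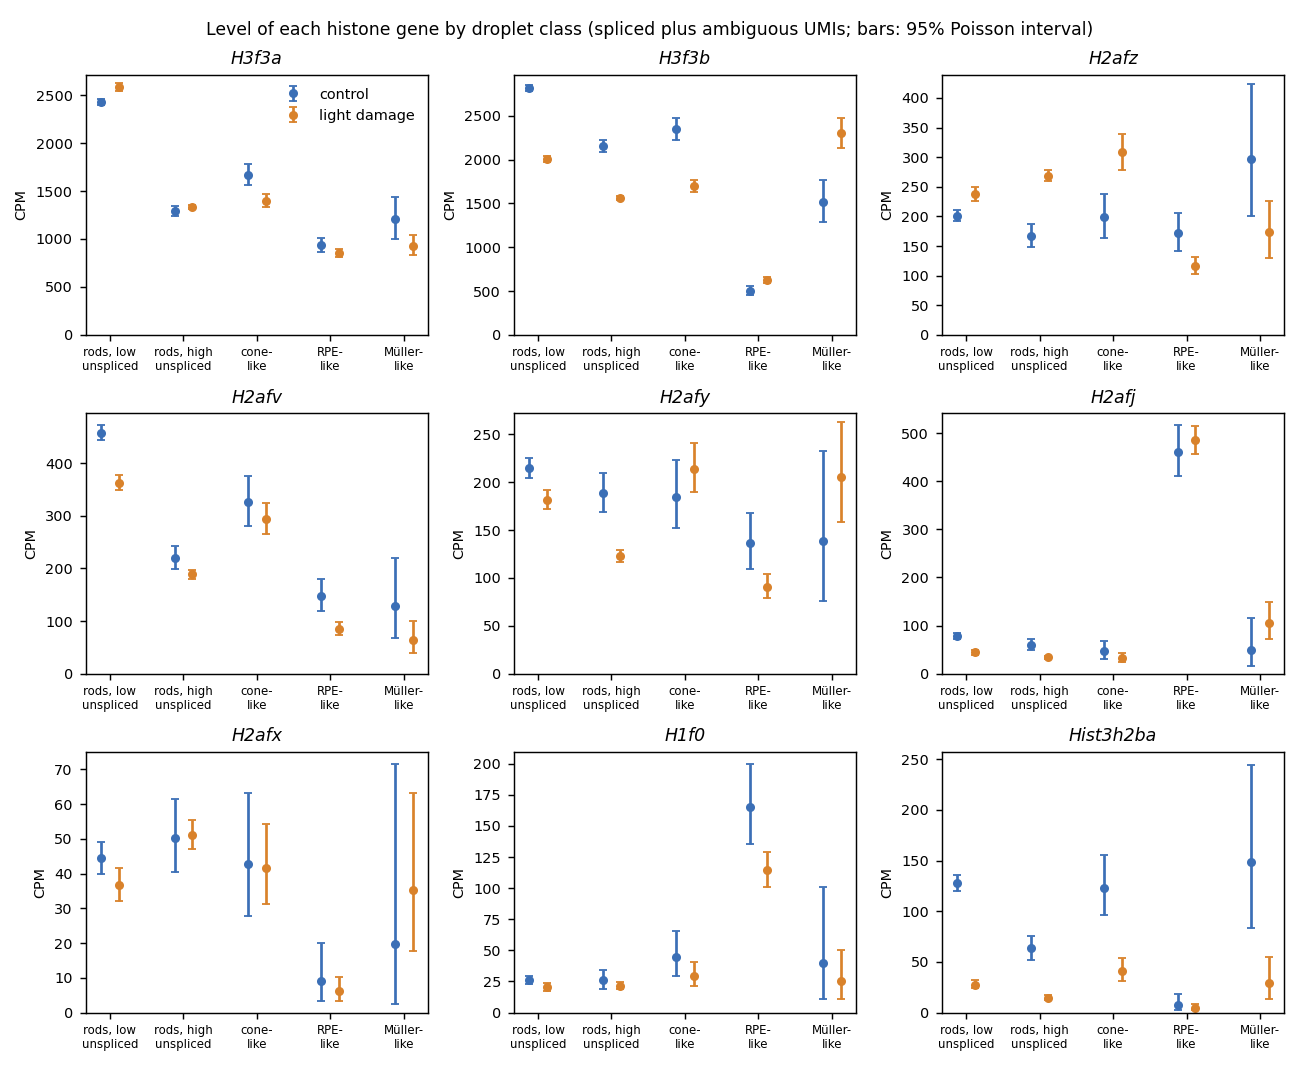
Level of the 9 histone genes in CPM (y axis, spliced plus ambiguous UMIs, each panel from 0) in 5 droplet classes (x axis) of the control library (blue) and the light damage library (orange). Points are values of 1 library and bars 95% Poisson intervals, which cover counting error only. Hist3h2ba stood at 128 CPM in control and 27.5 CPM in light damage low-unspliced rods, and H2afj was highest in RPE-like droplets.

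The H3.3 genes differed from each other in rods. H3f3b had 2817 CPM (2780 to 2853) in control and 2004 CPM (1971 to 2038) in light damage low-unspliced rods, a log2 ratio of -0.49 (-0.52 to -0.46). H3f3a had 2426 CPM (2392 to 2460) and 2586 CPM (2548 to 2625), a log2 ratio of 0.092 (0.063 to 0.12). The median gene, over those reaching 50 UMIs in both groups, moved by 0.16 on the log2 scale in this comparison, so that relative to it H3f3a was at -0.066 and H3f3b at -0.65. The direction of H3f3a thus depended on the scaling and that of H3f3b did not.

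In high-unspliced rods H3f3b was at 2159 CPM in control and 1566 CPM after light damage, with a log2 ratio of -0.46 (-0.51 to -0.41). H3f3a was at 1290 CPM and 1334 CPM, with an interval of the log2 ratio from -0.01 to 0.11. H3f3b was lower in the light damage library in 8 of 8 bins of unspliced share, with intervals apart in 8, whereas H3f3a was lower in 3 and higher in 5. Neither gene came near 2-fold. Of the UMIs of both genes together, H3f3a took 46.3% (45.8 to 46.7) in control and 56.3% (55.8 to 56.9) in light damage low-unspliced rods, and 37.4% (36.2 to 38.6) and 46.0% (45.5 to 46.5) in high-unspliced rods. The mix of H3.3 mRNA leaned further to H3f3a in the light damage library in both rod classes. Summed over both genes, H3.3 mRNA stood at 5243 CPM and 4590 CPM in low-unspliced rods and at 3449 CPM and 2900 CPM in high-unspliced rods.

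In RPE-like and Müller-like droplets H3f3b went the other way. In RPE-like droplets H3f3b was at 506 CPM (452 to 563) in control and 623 CPM (591 to 656) after light damage, a log2 ratio of 0.30 (0.13 to 0.48). Free RNA accounts for an estimated 171 and 92.3 CPM of these levels, and the ratio was 0.64 with it subtracted. In Müller-like droplets it was at 1513 CPM (1283 to 1773) from 153 UMIs and at 2300 CPM (2135 to 2475) from 716 UMIs, a log2 ratio of 0.60 (0.35 to 0.87). Here the median gene moved by -0.54, so that relative to it H3f3b was at 1.14 and past 2-fold. Free RNA accounts for an estimated 543 CPM of the control and 199.7 CPM of the light damage level, and the ratio was 0.98 with it subtracted. H3f3a was at 934 CPM and 852 CPM in RPE-like droplets, with a log2 ratio of -0.13 (-0.26 to 0.00). In Müller-like droplets H3f3a was at 1207 CPM and 932 CPM, a log2 ratio of -0.37 (-0.68 to -0.06), which turned to 0.17 relative to the median gene. Free RNA accounts for an estimated 447 and 206 CPM of H3f3a there, and the ratio was -0.20 with it subtracted. H3f3a took 44.4% (38.4 to 50.5) of the UMIs of both genes in control and 28.8% (26.0 to 31.7) in light damage Müller-like droplets. The median UMI count of these droplets was 2607 in control and 20348 after light damage, their summed rod markers stood at 10138 CPM and 4131 CPM with all 8 detected, and the part of depth and rod RNA in the differences was not tested.

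The H2A.Z genes also moved apart. H2afz was at 201 CPM (192 to 211) in control and 237 CPM (226 to 248.9) in light damage low-unspliced rods, with a log2 ratio of 0.24 (0.14 to 0.33) that came to 0.077 once centred on the median gene. In high-unspliced rods it was at 167 CPM (148.6 to 187) and 269 CPM (260 to 279), a log2 ratio of 0.69 (0.52 to 0.86). H2afz was higher in light damage rods in 8 of 8 bins, with intervals apart in 4, and its light damage level was highest in rods of 30 to 40% unspliced UMIs, at 375 CPM against 179 CPM in control.

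H2afv was at 458 CPM (444 to 473) in control and 362 CPM (348 to 377) in light damage low-unspliced rods, a log2 ratio of -0.34 (-0.41 to -0.26). In high-unspliced rods H2afv was at 219 CPM and 189 CPM, a log2 ratio of -0.22 (-0.37 to -0.06), and it was lower in 8 of 8 bins with intervals apart in 4. H2afz made up 30.5% (29.3 to 31.8) of the UMIs of both H2A.Z genes in control and 39.6% (38.0 to 41.1) in light damage low-unspliced rods. In high-unspliced rods that share was 43.2% (39.5 to 47.0) and 58.8% (57.4 to 60.1). In RPE-like droplets both genes were lower after light damage, H2afz at 172 CPM and 117 CPM (log2 ratio -0.56, -0.88 to -0.22) and H2afv at 147 CPM and 85.7 CPM (log2 ratio -0.78, -1.14 to -0.42).

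H2afj encodes an H2A variant that differs from canonical H2A mainly at its C-terminal end. It was at 77.3 CPM (71.4 to 83.6) in control and 44.2 CPM (39.4 to 49.5) in light damage low-unspliced rods, a log2 ratio of -0.81 (-1.01 to -0.61). High-unspliced rods gave 58.9 CPM (48.3 to 71.2) and 33.7 CPM (30.4 to 37.3), a log2 ratio of -0.80 (-1.12 to -0.48). After Hist3h2ba, H2afj had the lowest ratio of the 9 genes in both rod classes. Its level was highest in RPE-like droplets, at 461 CPM (410 to 516) in control and 485 CPM (457 to 515) after light damage, with a log2 ratio of 0.07 (-0.11 to 0.26). In that class 65.0% of 137 control droplets and 79.5% of 278 light damage droplets had a UMI of H2afj, against 15.4% and 11.2% of low-unspliced rods. Thinned to 1000 UMIs per droplet the shares were 28.5% (21.1 to 36.8) and 37.1% (31.4 to 43.0) in RPE-like droplets and 6.30% and 4.17% in low-unspliced rods.

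H2afy encodes macroH2A1, an H2A variant with a large globular domain found on the inactive X chromosome and other silent chromatin. In low-unspliced rods it was at 215 CPM and 182 CPM, a log2 ratio of -0.24 (-0.35 to -0.14), and in high-unspliced rods at 188 CPM and 123 CPM, a log2 ratio of -0.62 (-0.79 to -0.44). RPE-like droplets gave 136 CPM and 90.5 CPM, a log2 ratio of -0.59 (-0.96 to -0.22). The difference in X inactivation between the pools, seen in Xist above, was present beside these values, and its part in them was not tested.

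H2afx encodes H2A.X, the variant phosphorylated around DNA breaks. Its level was 44.3 CPM and 36.6 CPM in low-unspliced rods and 50.1 CPM and 51.1 CPM in high-unspliced rods. The log2 ratios were -0.28 (-0.51 to -0.04) and 0.03 (-0.29 to 0.36), so that no difference of the size seen for Hist3h2ba was present. H1f0 encodes H1.0, a linker histone that accumulates in cells that have left the cell cycle. It was at 26.0 CPM and 20.2 CPM in low-unspliced rods (log2 ratio -0.36, -0.68 to -0.05) and at 25.9 CPM and 21.5 CPM in high-unspliced rods, where the interval from -0.72 to 0.21 included 0. RPE-like droplets had 165 CPM (136 to 200) of H1f0 in control and 115 CPM (101 to 129) after light damage, a log2 ratio of -0.53 (-0.86 to -0.20), and H2afx had 6 and 14 UMIs there.

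**Figure D2:**
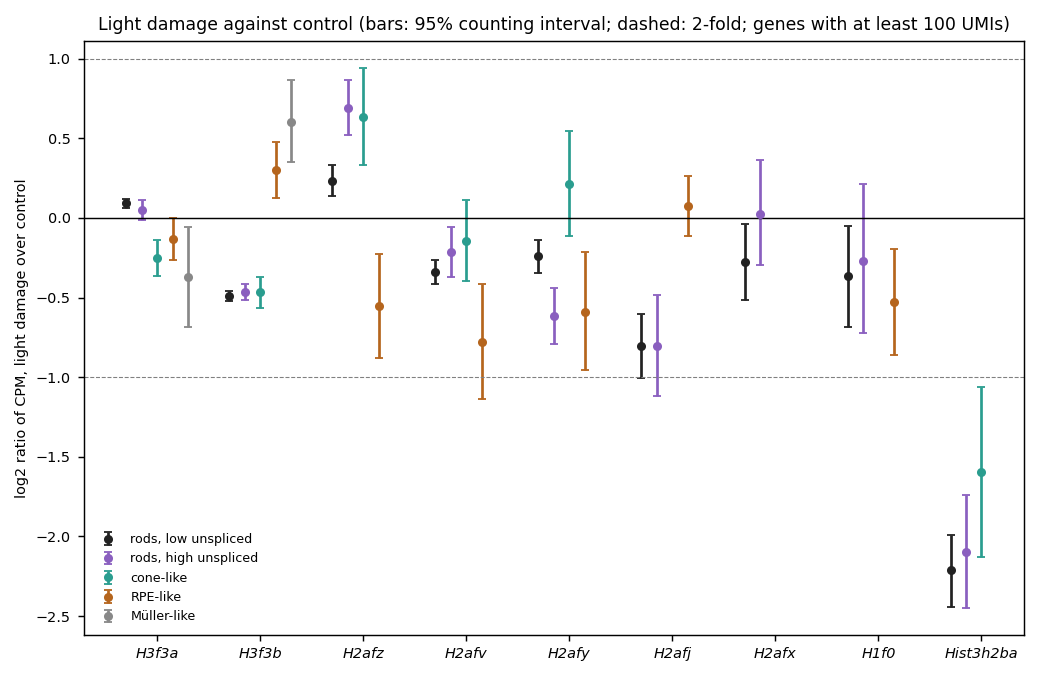
Log2 ratio of CPM, light damage over control (y axis), of each histone gene (x axis) in 5 droplet classes (colours), for genes with at least 100 UMIs over both libraries. Bars are 95% counting intervals and dashed lines mark 2-fold. Hist3h2ba lies at -2.21, -2.10 and -1.59 in the 2 rod classes and cone-like droplets, and every other value lies within the dashed lines.

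Among RPE-like droplets 7 of the 9 genes had at least 100 UMIs and 0 were at least 2-fold lower or higher, against 3.08% and 9.27% of 3925 genes. Among Müller-like droplets this held for 2 genes, H3f3a and H3f3b, with 0 called in either direction against 11.7% and 31.5% of 650 genes. For Hist3h2ba, Müller-like droplets held 15 control UMIs, at 148 CPM (83.0 to 245), and 9 light damage UMIs, at 28.9 CPM (13.2 to 54.9), under the minimum for a ratio. Free RNA, at an estimated 16.7% and 7.86% of the RNA of these droplets, accounts for 28.6 and 2.28 CPM of it.

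In cone-like droplets 6 genes had enough UMIs, and 1 of them, Hist3h2ba, was at least 2-fold lower and 0 higher, against 2.13% and 10.3% of 3619 genes. Hist3h2ba was at 123 CPM (96.5 to 155) from 72 UMIs in control and 40.9 CPM (30.7 to 53.3) from 54 UMIs after light damage, a log2 ratio of -1.59 (-2.13 to -1.06). H2afz was at 199 CPM and 308 CPM (log2 ratio 0.63, 0.33 to 0.94) and H3f3b at 2349 CPM and 1699 CPM (log2 ratio -0.47, -0.56 to -0.37), the directions seen in rods. These droplets also carried rod RNA. Their rod markers, 8 of 8 detected in both libraries, summed to 67946 CPM in control and 37391 CPM after light damage, and the rod markers reached 4% of UMIs in 159 of 164 control and 23 of 92 light damage droplets. The part of rod RNA in these differences was not tested. In the 5 control and 69 light damage droplets under 4%, Hist3h2ba had under 100 UMIs.

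Low-unspliced and high-unspliced rods were compared within each library, where mice and library are the same. These comparisons share their samples with those above. In control rods H3f3a went from 2426 CPM in low-unspliced to 1290 CPM in high-unspliced rods (log2 ratio -0.91, -0.97 to -0.85), H2afv from 458 to 219 CPM (log2 ratio -1.06, -1.22 to -0.91) and Hist3h2ba from 128 to 63.3 CPM (log2 ratio -1.01, -1.30 to -0.74). Of the 9 genes 2, H2afv and Hist3h2ba, were at least 2-fold lower and 0 at least 2-fold higher, against 5.62% and 30.7% of 7580 genes. The lower count was 0 with spliced UMIs only, with a minimum of 1000 UMIs or with a split at 15%, 8 with unspliced UMIs included, and 3, H3f3a added, when centred on the median gene. In light damage rods the same genes stood at log2 ratios of -0.95 (-0.99 to -0.92), -0.94 (-1.03 to -0.86) and -0.90 (-1.21 to -0.60), and 0 of 9 passed 2-fold, against 5.23% lower and 37.2% higher of 9616 genes. The genes closest to these limits were thus counted on either side of 2-fold at nearly equal ratios.

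The other genes differed less between the rod classes. H3f3b had log2 ratios of -0.38 (-0.43 to -0.34) in control and -0.36 (-0.39 to -0.32) in light damage, and H2afj -0.39 in both. H2afx leaned to high-unspliced rods after light damage (log2 ratio 0.48, 0.26 to 0.70), and in control its interval from -0.17 to 0.51 included 0. H2afz was at -0.27 (-0.45 to -0.09) in control and 0.18 (0.10 to 0.27) after light damage. The median gene lay 0.53 higher in high-unspliced rods of control and 0.49 higher in those of light damage, and relative to it all 9 genes were lower in the high-unspliced rods of both libraries, with H2afx in light damage nearest to 0 at -0.012. Rods were split on unspliced share and the median gene moved with that split, whose part in this count was not tested. In control, H2afx and H1f0 each changed sign in 5 of 13 other settings. In light damage rods H1f0 changed sign in 3 of 13, and H2afx and H2afz in 2 each. The median over the 9 genes was -0.38 in control and -0.39 after light damage, against 0.48 and 0.67 over all genes tested. Malat1, an RNA kept in the nucleus, was at 1389 and 52614 CPM in control low-unspliced and high-unspliced rods, and Pde6g, a cytoplasmic mRNA of phototransduction, at 13719 and 5622 CPM.

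**Figure D3:**
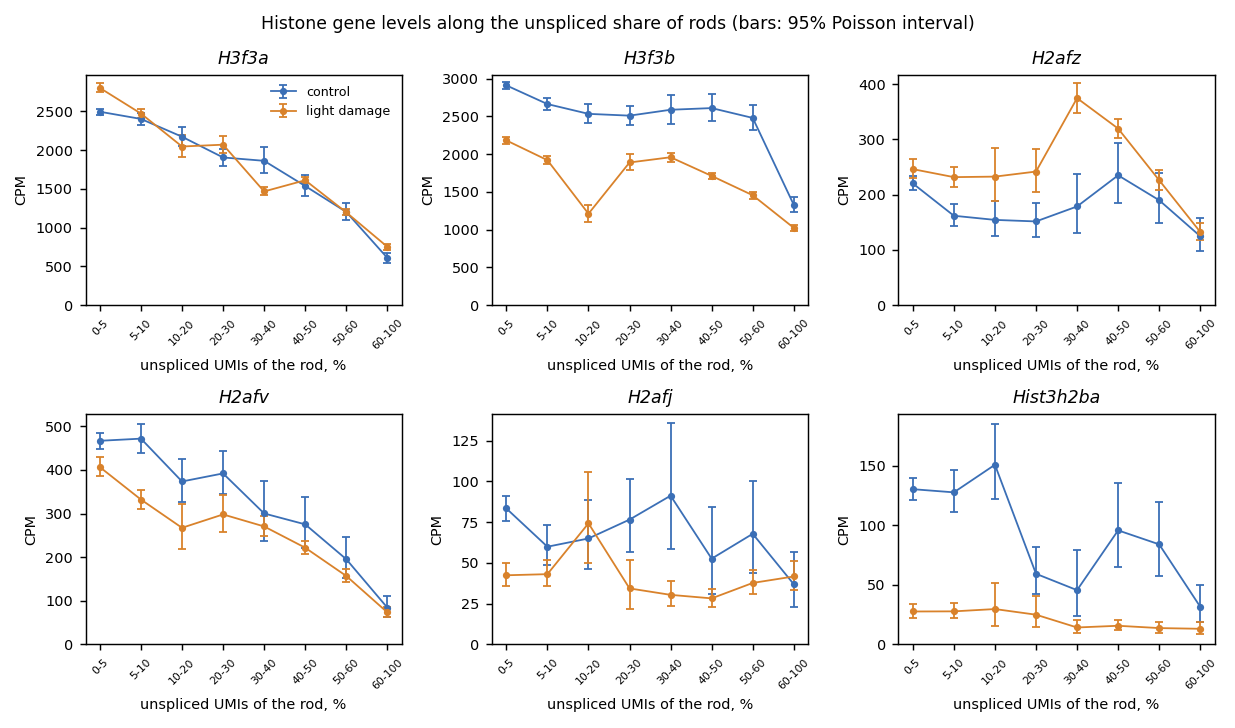
Level in CPM (y axis, each panel from 0) of 6 histone genes in rods grouped by the percentage of their UMIs that were unspliced (x axis), in the control (blue) and light damage (orange) libraries, with 95% Poisson intervals. Bins held 60 to 1678 rods. H3f3a was lower toward high unspliced shares in both libraries, H3f3b and Hist3h2ba were lower after light damage in each of the 8 bins, and H2afz was higher in each.

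Unspliced RNA could be read for 5 genes. H2afx, H1f0, Hist3h2ba and H2afj have no base that is intron in every transcript, and no unspliced UMI was counted for them. H3f3b and H2afz, with 3075 and 660 such bases, had at most 0.456% unspliced UMIs in rods. H3f3a, with 9608 bases, had 0.171% (0.118 to 0.239) and 0.170% (0.115 to 0.242) unspliced UMIs in control and light damage low-unspliced rods.

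In high-unspliced rods the unspliced share of H3f3a was 7.57% (6.57 to 8.67) in control, from 192 of 2536 UMIs, and 11.5% (11.0 to 12.0) after light damage, from 1972 of 17119. Over all genes the unspliced share of these rods was 55.3% in control and 52.2% after light damage, the opposite order. As CPM of unspliced UMIs only, H3f3a was at 85.3 in control and 159 after light damage, a log2 ratio of 0.90 (0.69 to 1.12), beside 0.05 for its spliced plus ambiguous UMIs. H2afv, with 15582 intron bases, was at 24.5% (20.9 to 28.4) and 24.6% (23.1 to 26.3), and H2afy, with 55934, at 13.4% (10.2 to 17.2) and 15.7% (13.9 to 17.5). The intervals of the libraries overlapped for H2afv and H2afy and lay apart for H3f3a. In cone-like droplets H3f3a had 2 of 978 unspliced UMIs in control (0.204%) and 119 of 1970 after light damage (6.04%, 5.03 to 7.19). Over all genes their unspliced share was 26.3% in control and 36.2% after light damage, the same order. Rod markers reached 4% in 159 of 164 control and 23 of 92 light damage cone-like droplets. A single light damage droplet held 267 of the 1851 spliced plus ambiguous UMIs of H3f3a. The part of these in the difference was not tested. An antisense RNA, H3f3aos, overlaps H3f3a on the opposite strand, and the authors kept reads of the sense strand only.

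**Figure D4:**
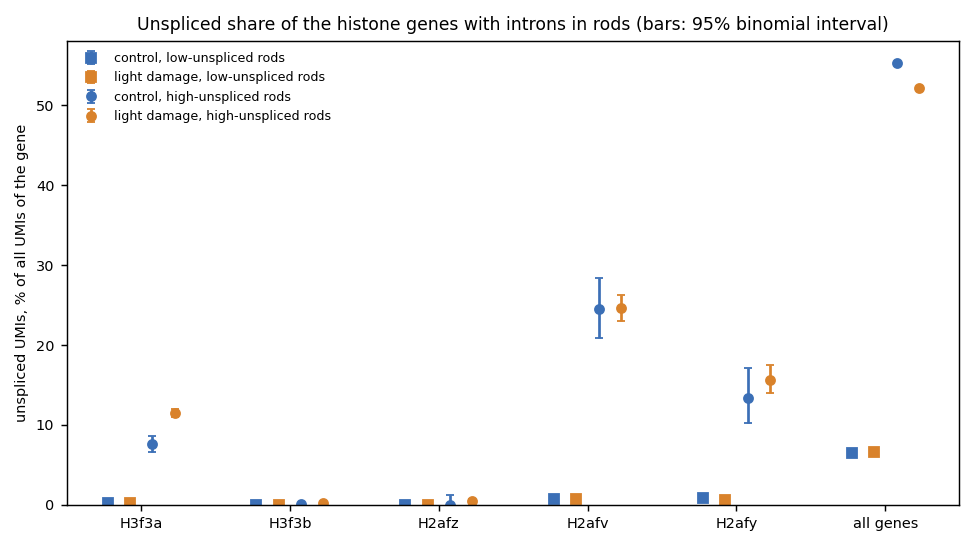
Unspliced UMIs as a percentage of all UMIs of the gene (y axis) for the 5 histone genes with introns, and over all genes (x axis), in low-unspliced (squares) and high-unspliced (circles) rods of control (blue) and light damage (orange). Bars on the genes are 95% binomial intervals. H3f3a is at 7.57% in control and 11.5% in light damage high-unspliced rods, and H3f3b and H2afz lie near 0.

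Genes named Hist1h to Hist4h, 66 besides Hist3h2ba and called replication-dependent here by name, were described by the same measure. The stem loop was found in 46 of the 67 genes so named, and only their polyadenylated RNA was measured. In low-unspliced rods 14 had enough UMIs, of which 2 were at least 2-fold lower after light damage and 0 higher, beside 0.534% and 2.41% of all genes. Their median log2 ratio was -0.44 against 0.16 over all genes. Hist3h2a, an H2A gene that neighbours Hist3h2ba on chromosome 11, was at 226 CPM in control and 106 CPM after light damage (log2 ratio -1.09, -1.21 to -0.96). Hist2h2aa1, another H2A gene, was at 20.6 CPM and 9.52 CPM (log2 ratio -1.12, -1.55 to -0.70). None of the 14 lay as low as Hist3h2ba, and its interval lay below those of all 14.

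In high-unspliced rods 12 of the 66 had enough UMIs, of which 3 were at least 2-fold lower and 1 higher, beside 1.88% and 7.11% of all genes. Their median was -0.46 against 0.09 over all genes. Hist3h2a was at 281 CPM and 131 CPM (log2 ratio -1.10, -1.25 to -0.96), and Hist1h2bc, an H2B gene, at 388 CPM and 173 CPM (log2 ratio -1.17, -1.29 to -1.04). Hist1h4i, an H4 gene, was at 26.4 CPM and 12.4 CPM (log2 ratio -1.09, -1.57 to -0.59), and Hist1h4a, another H4 gene, was higher, at 3.85 CPM from 7 UMIs and 9.34 CPM from 106 (log2 ratio 1.28, 0.18 to 2.63). Hist1h4a reached the UMI minimum only through the light damage library, where it was higher. Summed over the 66 genes, the level was 1539 CPM in control and 1070 CPM in light damage low-unspliced rods, and 1097 CPM and 645 CPM in high-unspliced rods. The sums were also lower after light damage in RPE-like droplets, at 898 CPM and 706 CPM. Genes for the same histone have near-identical coding sequences, and UMIs that fit several genes were left unassigned in the counting, so levels within these families are uncertain.

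**Figure D5:**
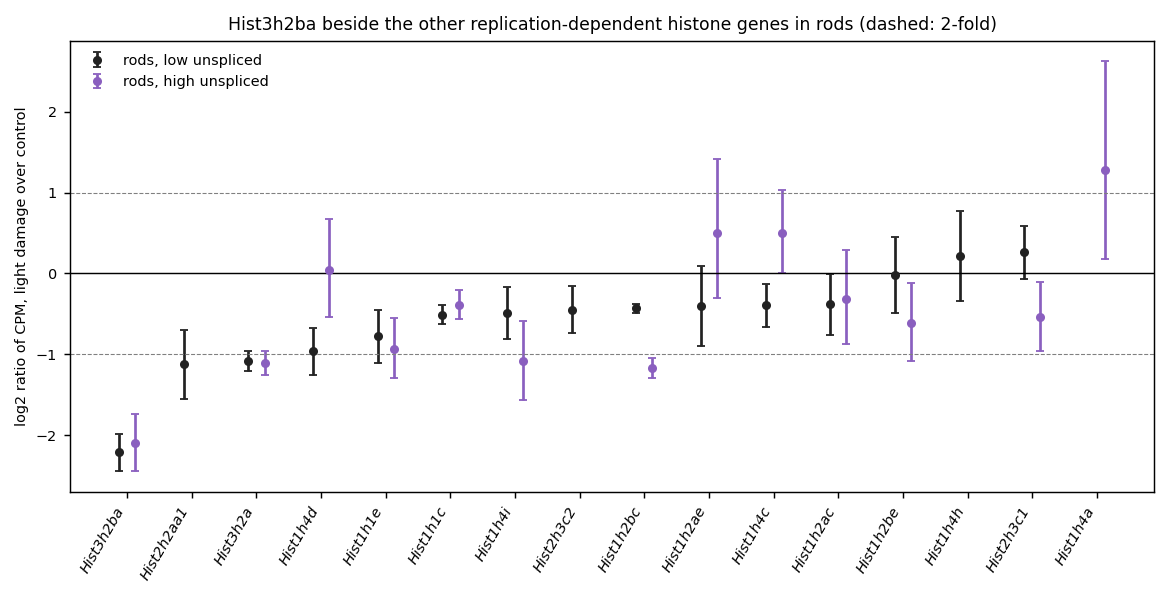
Log2 ratio of CPM, light damage over control (y axis), of Hist3h2ba and of the replication-dependent histone genes with at least 100 UMIs (x axis) in low-unspliced (black) and high-unspliced (purple) rods. Bars are 95% counting intervals and dashed lines mark 2-fold. Hist3h2ba lies at -2.21 and -2.10, below every other gene shown.

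In cone-like droplets 3 of the 66 genes had enough UMIs and 2 were at least 2-fold lower after light damage, against 2.13% of all genes. Hist1h1c, an H1 gene, was at 211 CPM and 87.0 CPM (log2 ratio -1.27, -1.65 to -0.90) and Hist1h2bc at 598 CPM and 282 CPM (log2 ratio -1.08, -1.30 to -0.87), in the droplets whose rod RNA differed as given above. Among RPE-like droplets 4 had enough UMIs and 0 passed 2-fold, beside 3.08% lower and 9.27% higher of all genes. Between the rod classes, 4 of 13 were at least 2-fold lower and 1 higher in high-unspliced control rods, and 2 of 15 lower and 0 higher after light damage, beside 5.62% and 30.7% of all genes in control and 5.23% and 37.2% after light damage. Hist1h2bc had log2 ratios of -1.13 (-1.24 to -1.02) in control and -1.87 (-1.94 to -1.79) after light damage there, and Hist2h3c2, an H3 gene, of -1.60 (-2.36 to -0.93) and -1.73 (-2.13 to -1.33). Hist1h4d was lower in control (log2 ratio -1.39, -2.003 to -0.83) and Hist1h2be, an H2B gene, was higher (1.30, 0.76 to 1.83).

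Hist3h2a and Hist3h2ba differed along the rod classes. From low-unspliced to high-unspliced rods Hist3h2a was higher, with log2 ratios of 0.32 (0.17 to 0.46) in control and 0.30 (0.17 to 0.43) after light damage, where Hist3h2ba was lower in both. The RefSeq promoter of Hist3h2a (chr11:58954435-58954684, plus strand, for the 250 bases before its start) held 2 CCAAT boxes and 1 octamer. Its transcript holds the stem loop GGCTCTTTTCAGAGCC, the letters found in Hist3h2ba, 1643 bases before its end.

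Genes that handle these histones were counted by the same 2-fold limit, beside the 2.41% and 7.11% of all genes at least 2-fold higher, and the 0.534% and 1.88% at least 2-fold lower, in low-unspliced and high-unspliced rods. Of 10 genes listed with H3.3 deposition, which are chaperones but for Hinfp, a transcription factor of histone H4 genes, 9 had enough UMIs in low-unspliced rods, with 0 past 2-fold and a median of 0.40, and 10 in high-unspliced rods, with 2 higher. These were Daxx, the partner of Atrx in placing H3.3 at repeats, at 24.2 CPM in control and 61.6 CPM after light damage (log2 ratio 1.35, 0.91 to 1.82), and Asf1b, a chaperone of H3 and H4 in dividing cells, at 3.85 CPM from 7 UMIs and 10.6 CPM from 120 (log2 ratio 1.46, 0.37 to 2.80). Daxx and Asf1b each had under 100 control UMIs and entered through the light damage library, where they were higher. All 11 genes of H2A.Z exchange had enough UMIs in both rod classes and 0 passed 2-fold, with medians of 0.15 and 0.05. Of 12 other histone chaperones 11 were measured in each rod class and 0 passed 2-fold. Of 7 genes of histone mRNA processing 6 were measured in each and 0 passed 2-fold. In Müller-like droplets 5 of the other chaperones were measured, and 3 were higher after light damage and 1 lower, against 31.5% and 11.7% of all genes, at a median of 2607 UMIs per control and 20348 per light damage droplet. Npm1, a nucleolar chaperone, was at 148 CPM from 15 UMIs and 511 CPM from 159 (log2 ratio 1.78, 1.02 to 2.65), Ncl, another nucleolar protein, at 317 and 742 CPM (1.23, 0.69 to 1.81), Nap1l1 at 158 and 328 CPM (1.05, 0.28 to 1.91) and Anp32a at 465 and 183 CPM (-1.34, -1.93 to -0.76). Npm1, Ncl and Nap1l1 each had under 100 control UMIs and entered through the light damage library, where they were higher.

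Between the rod classes of a library more of these genes passed 2-fold. In high-unspliced control rods 4 of the 9 listed genes of H3.3 deposition with enough UMIs were higher, led by Hinfp at 7.57 and 74.3 CPM (log2 ratio 3.29, 2.85 to 3.75), Cabin1, a subunit of the HIRA complex, at 28.2 and 114 CPM (2.01, 1.74 to 2.29) and Atrx, the partner of Daxx, at 164 and 528 CPM (1.68, 1.56 to 1.80). Hinfp reached the UMI minimum in control only through the high-unspliced rods, where it was higher. After light damage 3 of the 10 were higher, Hinfp (log2 ratio 2.63, 2.30 to 2.98), Cabin1 (1.34, 1.14 to 1.55) and Ubn2, another HIRA complex subunit (1.22, 1.13 to 1.31). Of 11 genes of H2A.Z exchange 3 were higher there, Srcap (log2 ratio 1.83, 1.60 to 2.06), the motor of the complex that loads H2A.Z, Ep400 (1.48, 1.22 to 1.75) and Ino80 (1.45, 1.15 to 1.75). After light damage the same 3 of the 11 were higher, Ino80 at 1.58 (1.38 to 1.79), Srcap at 1.35 (1.20 to 1.51) and Ep400 at 1.19 (1.01 to 1.37), and 1, Znhit1, a small subunit of the Srcap complex, was lower at 77.5 and 34.2 CPM (log2 ratio -1.18, -1.37 to -0.99). Slbp, which binds the histone stem loop, was higher in high-unspliced rods in control (25.2 and 58.9 CPM, log2 ratio 1.23, 0.88 to 1.57) and after light damage (32.2 and 99.6 CPM, 1.63, 1.42 to 1.84). Npat, a coactivator of histone genes, was higher in control (log2 ratio 1.25, 0.82 to 1.68). Of the other histone chaperones, Supt16, a subunit of FACT, was higher in control at 122 and 304 CPM (log2 ratio 1.32, 1.16 to 1.47). These shares stand beside the 30.7% and 37.2% of all genes that were at least 2-fold higher in the same comparisons.

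Other variants were scarce, and few of the cell cycle genes had enough UMIs. Of 11 other histone variant genes 10 were matched, and together they made up 2.44 CPM in control and 4.25 CPM in light damage low-unspliced rods. Cenpa, the H3 variant of centromeres, had 19 UMIs in low-unspliced and 130 in high-unspliced light damage rods (log2 ratio 2.04, 1.34 to 2.82). Of 13 cell cycle genes 1 had enough UMIs in low-unspliced rods of the libraries compared, with a log2 ratio of -0.13, and their sum was 146 CPM in control and 132 CPM after light damage. Between the rod classes of light damage 3 had enough UMIs and 2 were higher in high-unspliced rods, against 37.2% of all genes, Ccna2, a cyclin, with 23 and 258 UMIs (log2 ratio 2.75, 2.14 to 3.44) and Tyms, which makes thymidylate, with 18 and 155 UMIs (2.37, 1.66 to 3.16). Cenpa, Ccna2 and Tyms each reached the UMI minimum only through the high-unspliced light damage rods, where they were higher.

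Across the 10 class and library groups (5 classes in each library), the genes most like the H3.3 genes and Hist3h2ba were found by Pearson's r of log2(CPM + 10) over 7607 genes. The groups share libraries, and these values are a description. Those most like Hist3h2ba were Dpm2 (r = 0.90), Ift43, Erh, Vrk1 and Lsm8. Those most like H3f3a were Nop53 (r = 0.97), Ddx1, Hpf1, Tmsb15b2 and Srp19, and those most like H3f3b were Samd8 (r = 0.97), Tubb5, Gorasp2, Stk25 and Lrrc8b. The likeness covers differences between cell classes as well as between libraries, and of the 5 genes most like Hist3h2ba none had a difference of its size in low-unspliced rods, the nearest being Erh at 129 CPM in control and 73.4 CPM after light damage.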

How the data were processed

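The authors demultiplexed the reads with Cell Ranger 7.0.1 and mapped them with salmon 1.10.1 and alevin-fry 0.8.1 to spliced and unspliced transcripts of mm10, keeping the sense strand. The deposited values are raw UMI counts per barcode in spliced, unspliced and ambiguous blocks. The control library holds 30605284 UMIs and the light damage library 54413601. Genes were named from GENCODE vM21.

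Droplets needed 500 UMIs or the inflection point (1464 and 1614 UMIs) if larger, and under 10% mitochondrial UMIs. The highest Scrublet scores (scanpy 1.11.5), 0.8% per 1000 droplets, were left out (114 and 276 droplets). Classes were set by marker shares of UMIs (cones 0.3%, RPE 1%, Müller glia 0.5%, rods 1%), limits chosen with the distributions in view, and droplets past the limits of more than 1 class other than rods stayed unnamed. Rods had to lie under every other limit, and the other classes except cones under 3% rod markers, so cone-like droplets may also pass the rod limit.

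With 1 library per condition no test was run. Each ratio has a 95% interval from an exact binomial on its counts. It was tried only on simulated Poisson counts without spread between droplets, which cannot show how it covers such spread. A gene counted as called at 100 UMIs over both groups and 2-fold. Free RNA was barcodes under 50 UMIs. Named genes are the 9 members, up to 3 genes per list, direction and comparison past 2-fold by the interval end nearest 0, the 5 genes most alike for Hist3h2ba, H3f3a and H3f3b, and Pde6g, Malat1 and Xist. The members and lists were chosen with earlier results of these data known.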

Additional observations from a re-analysis of the deposited data

Results flagged for a closer look

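H3f3b differed in opposite directions between cell classes under light damage, with log2 ratios of -0.49 in low-unspliced rods, -0.46 in high-unspliced rods and -0.47 in cone-like droplets against 0.30 in RPE-like and 0.60 in Müller-like droplets. H2afz was at 0.24 in low-unspliced rods, 0.69 in high-unspliced rods and 0.63 in cone-like droplets against -0.56 in RPE-like droplets. H3f3a was at 0.092 in low-unspliced rods against -0.25 in cone-like and -0.37 in Müller-like droplets, and its values in low-unspliced rods and Müller-like droplets change sign relative to the median gene. These genes were picked out because the counting intervals lay on opposite sides of 0, and with 1 library per condition the differences between classes were not tested. In cone-like droplets the median rod marker share was 7.53% in control and 2.09% after light damage. In low-unspliced rods it was 7.95% and 7.76%. The part of this rod RNA in the cone-like values was not tested.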

How the results depend on the processing

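Of 624 recomputed ratios of the 9 genes, 523 stayed within the counting interval of the value given, 101 lay outside it, 24 changed sign, and 0 of those at least 2-fold apart did. For Hist3h2ba, light damage over control ranged from -2.37 to -2.18 (log2) in low-unspliced rods and from -2.30 to -1.98 in high-unspliced rods. Counts of members at least 2-fold lower in control high-unspliced rods were 8 with unspliced UMIs included, 0 with spliced UMIs only, with a minimum of 1000 UMIs or with a split at 15%, and 1 with a mitochondrial limit of 5%, without doublet removal or with doubled marker limits. In light damage rods they were 6 with unspliced UMIs included, 4 centred on the median gene and 3 with ribosomal and mitochondrial genes left out of the total. In cone-like droplets the lower count was 0 with doubled marker limits. With cone-like droplets under 4% rod markers only, an alternative chosen after seeing the data, it was 0 and the higher count 1 (H2afz). In Müller-like droplets the higher count was 1 (H3f3b) with doubled marker limits or centred on the median gene. Counting unspliced UMIs adds them to the totals of high-unspliced rods by construction. Hist3h2ba had under 100 UMIs in both restricted sets of cone-like droplets. The cause of the other shifts was not tested. No paired analysis was possible because each condition has 1 library. Müller-like droplets were the most limited, where with 31 and 32 droplets 7 of the 9 genes had under 100 UMIs.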
